A study of Mus musculus with 6 samples.

Results

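The mitochondrial ribosomal proteins are the nucleus-encoded proteins of the ribosome inside mitochondria. They were taken as every gene whose symbol starts with Mrpl or Mrps followed by a number, which gave 78 of the 24532 genes in the table. Of these, 49 carry a large subunit symbol (Mrpl) and 29 a small subunit symbol (Mrps). Their mRNA was measured by RNA-seq of polyadenylated RNA from whole gastrocnemius, a calf muscle made mostly of fast fibers. The samples were 3 mice labelled WT and 3 labelled Sirt6 KO, male, C57BL/6 and 20 weeks old, with 1 library per animal. The WT animals carried the floxed Sirt6 alleles without Cre (Sirt6 flox/flox), and the animals labelled Sirt6 KO carried the same floxed alleles with Myl1-Cre. Myl1-Cre is expressed mainly in fast (type II) fibers, so slow fibers and the other cells of the muscle may keep Sirt6. The comparison asks which mRNAs differ in muscle when Sirt6, a nuclear NAD-dependent deacylase, is deleted from its fibers.

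The mitochondrial ribosome translates the few mRNAs that the mitochondrial genome encodes, all of which specify core subunits of the oxidative phosphorylation (OXPHOS) complexes. Its RNAs come from mitochondrial DNA, whereas all its proteins are made in the cytosol and imported. Many of these proteins have a bacterial counterpart, and others were added in the mitochondrial lineage, where they surround and partly replace the rRNA. Skeletal muscle relies heavily on OXPHOS, and inherited defects in several of these proteins cause combined deficiencies of the respiratory chain.

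Of the 78 mRNAs, 9 were lower and 5 higher where the label was Sirt6 KO, each by less than 2-fold. Mrpl41, Mrpl47 and Mrpl50 fell the most, by 0.90, 0.72 and 0.64 on the log2 scale. Mrps34 and Mrps24 rose the most, by 0.69 and 0.58 on the same scale. These shares, 11.5% lower and 6.41% higher, lie near those of all 13801 genes tested, 8.39% and 7.85%. Members of both subunits moved in both directions. With a correction for the GC content of the transcripts, described further on, 11 of the 14 no longer passed.

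Sirt6 itself went against the labels. It stood at 2.77, 2.23 and 2.88 CPM (counts scaled to library size, with TMM factors) in WT, and at 7.81, 7.44 and 6.68 CPM in the libraries labelled Sirt6 KO. It was higher there by 1.48 on the log2 scale (SE 0.17, edgeR's quasi-likelihood test, adjusted p = 0.0113). Counts per gene can include exons outside the deleted part, and the study's texts name different Sirt6 flox lines, so this level does not settle the genotype. All directions below are directions in the libraries labelled Sirt6 KO. Library totals ran from 44845763 to 63016899 counts, and 7 skeletal muscle markers together took 120700 to 197700 CPM in every library. The 8 slow fiber markers (such as Myh7, Tnnt1 and Myl2) summed to 4193, 3455 and 159.9 CPM in WT and to 418.3, 2447 and 578.7 CPM in the libraries labelled Sirt6 KO. Both groups thus held libraries rich and poor in slow fiber mRNA, and none of the 8 passed the test.

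The promoters of 3 members are shown here because these members head the lists described further on: Mrpl50 the large subunit mRNAs that fell, Mrpl27 the large subunit mRNAs that rose, and Mrps24 the small subunit mRNAs that rose. Each sequence is the stretch of up to 250 bases before the transcript start in RefSeq, on the gene's own strand (GRCm38.p6, the build of the mm10 files). It lies at chr4:49521084-49521333 (minus strand) for Mrpl50, chr11:94653541-94653769 (plus strand) for Mrpl27, and chr11:5707702-5707951 (minus strand) for Mrps24. Capitals mark matches, on either strand, to motifs known from promoters of nuclear genes for mitochondrial proteins: CCGGAAG of the ETS family with GABPA, GCGCANGCG of NRF1, TGACG as the short form of the cyclic AMP response element, AAGATGGC of YY1, TCAAGGTCA of the estrogen-related receptors, and GGGCGG of SP1.
Mrpl50: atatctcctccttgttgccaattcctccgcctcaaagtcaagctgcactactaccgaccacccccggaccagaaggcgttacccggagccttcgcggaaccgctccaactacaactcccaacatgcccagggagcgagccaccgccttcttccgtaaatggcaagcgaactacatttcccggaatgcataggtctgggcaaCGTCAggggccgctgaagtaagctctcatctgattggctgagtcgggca
Mrpl27: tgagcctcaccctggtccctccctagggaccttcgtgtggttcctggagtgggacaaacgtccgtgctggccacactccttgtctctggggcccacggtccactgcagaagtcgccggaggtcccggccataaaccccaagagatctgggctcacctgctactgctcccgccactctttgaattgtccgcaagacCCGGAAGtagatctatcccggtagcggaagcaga
Mrps24: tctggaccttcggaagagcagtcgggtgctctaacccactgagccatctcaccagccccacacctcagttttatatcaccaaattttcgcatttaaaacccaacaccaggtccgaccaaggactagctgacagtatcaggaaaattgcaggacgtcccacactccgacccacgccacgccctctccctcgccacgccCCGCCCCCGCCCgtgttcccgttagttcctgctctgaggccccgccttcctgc
The window of Mrpl50 held 1 TGACG match, that of Mrpl27 held 1 CCGGAAG match, and that of Mrps24 held 2 adjoining GGGCGG matches. Among the 69 members with a promoter in the RefSeq table, windows from 250 bases before to 50 after the start held CCGGAAG in 26 (37.7%), against 9.93% of all 27025 genes and 12.9% of 17491 protein-coding genes. The NRF1 motif was in 16 (23.2%) against 7.03% of all and 9.63% of protein-coding genes, and the YY1 motif in 12 (17.4%) against 3.19% and 3.57%. The estrogen-related receptor motif was in 0 of 69 against 0.466% of all and 0.377% of protein-coding genes. GGGCGG was in 49.3%, against 38.2% of all and 49.2% of protein-coding genes, so its share was that of protein-coding genes. The full site TGACGTCA, which contains the short form, was in 2.9%, against 2.03% and 2.54%. Of the 9 members that fell, 0 held CCGGAAG and 7 held TGACG, and of the 4 that rose and have a window, 3 held CCGGAAG and 1 held TGACG. The 9 include Mrps36, whose protein is not ribosomal, and 11 of the 14 calls were lost after GC correction. Median GC content of the windows was 56.3% for those that fell and 61.8% for those that rose. It was 58.3% for all members, 52.7% for all genes and 56.3% for protein-coding genes. Across all members the short form was in 42.0%, against 23.0% of all and 26.2% of protein-coding genes. These are counts of letters in short windows over few genes, and no binding was measured in these files.

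All 78 members had ample counts, though some share exon bases with other genes, as described further on. The lowest count of any member in any library was 456, and all 78 passed the filter on low counts. Per length, as FPKM (fragments per kilobase of transcript, scaled to sequencing depth), the median level over the family was 24.5. Mrpl42 was the most abundant large subunit mRNA at 287.3, 312.1 and 250.8 FPKM in WT and 218.2, 254.9 and 218.9 FPKM in the libraries labelled Sirt6 KO. Mrpl30 and Mrpl33 followed, with means over all 6 libraries of 112.1 and 91.8 FPKM. In the small subunit, Mrps21 led with a mean of 140.3 FPKM, ahead of Mrps15 at 50.1 and Mrps23 at 49.1 FPKM. The lowest were Mrpl19 at 4.49, Mrpl17 at 4.68 and Mrpl41 at 6.09 FPKM in the large subunit, and Mrps25 at 4.77, Mrps2 at 10.21 and Mrps11 at 11.4 FPKM in the small subunit. The proteins of 1 particle thus came from mRNAs whose levels per length spanned 4.49 to 257.0 FPKM. Within a group the libraries differed little: the median coefficient of variation of CPM was 8.88% for WT and 8.12% under the KO label for the large subunit, and 9.22% and 6.63% for the small subunit.

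**Figure D1:**
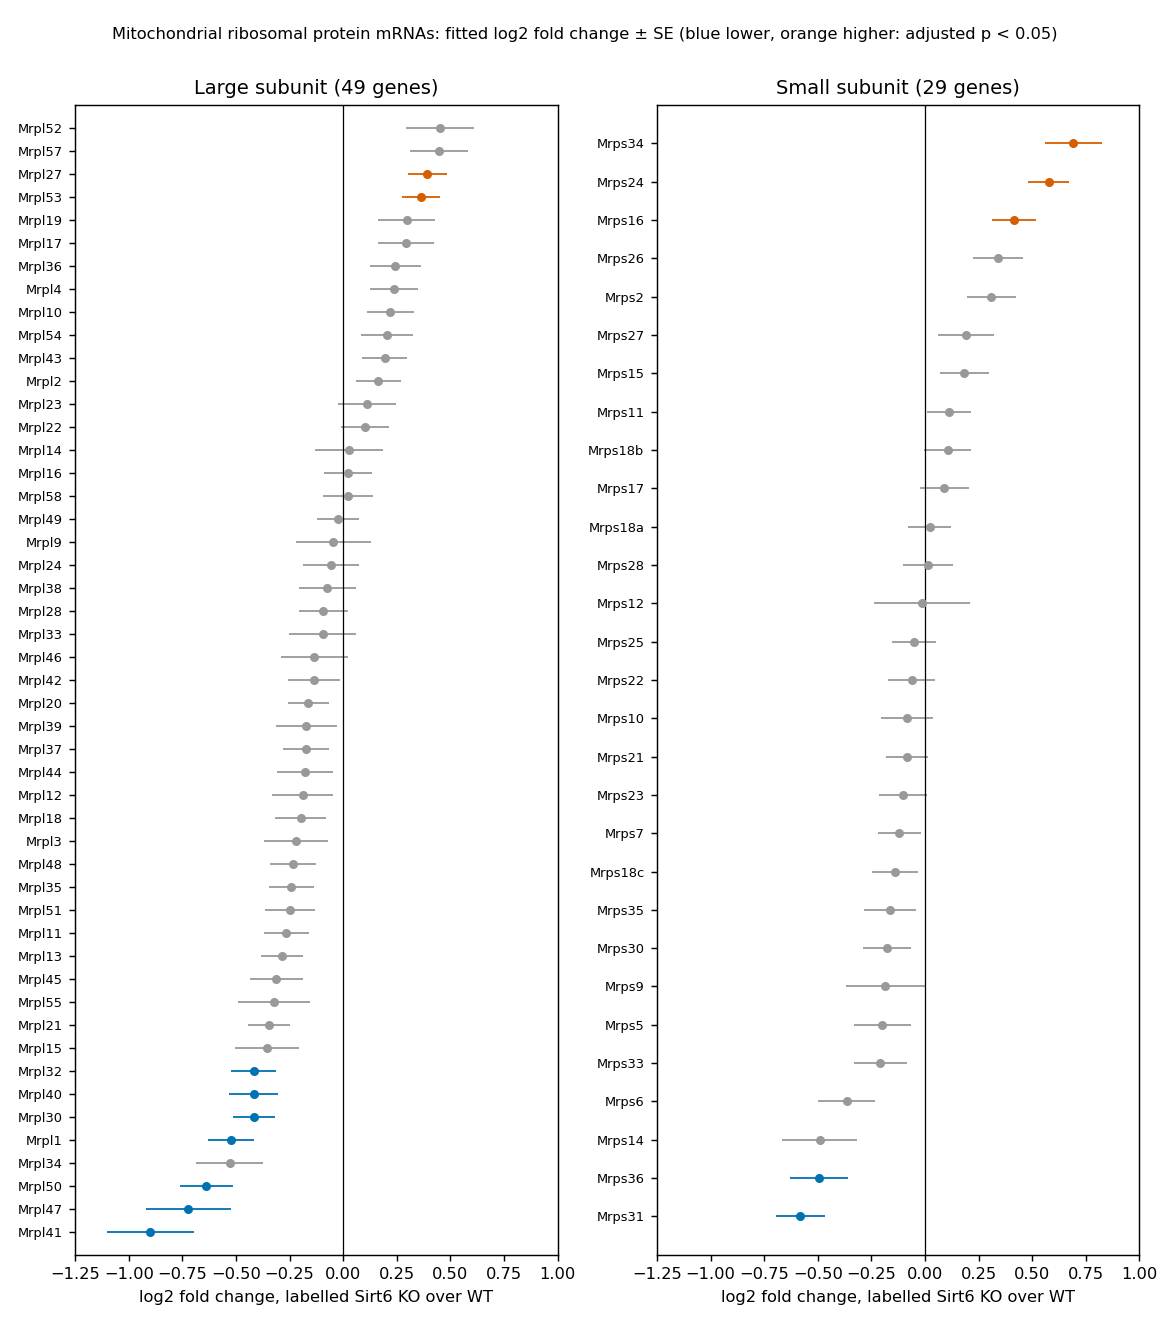
Fitted log2 fold change (horizontal axis, libraries labelled Sirt6 KO over WT) of each member, with bars of 1 SE, for the 49 large subunit genes (left) and the 29 small subunit genes (right), 3 libraries per group. Blue points are the 9 members lower and orange points the 5 members higher at an adjusted p under 0.05, and 49 of the 78 points lie below 0.

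In the large subunit, 7 of 49 mRNAs (14.3%) fell and 2 (4.08%) rose under the Sirt6 KO label, beside 8.39% and 7.85% of all genes. After GC correction 4 were lower and 1 higher, where 3.52% of all genes were lower and 3.41% higher. The median log2 fold change of the 49 was -0.14, with quartiles at -0.29 and 0.11, and that of all genes tested was -0.02. The 3 libraries of each group did not overlap for 25 members, 16 of them lower and 9 higher. Over all genes, 19.6% were lower and 20.3% higher without overlap, against 32.7% and 18.4% of the large subunit. Every change was under 2-fold, whereas 7.83% of all genes tested changed by more than 2-fold with an unadjusted p under 0.05. In bulk muscle, fewer cells of a type and less RNA per cell cannot be told apart.

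Mrpl50, a protein of the large subunit with no bacterial counterpart, lies at chr4:49512597-49521083. It stood at 65.8, 73.8 and 71.5 CPM in WT and at 40.8, 51.8 and 42.9 CPM under the Sirt6 KO label. The groups did not overlap, and the difference was -0.64 (SE 0.12, adjusted p = 0.0200). Mrpl41, another mitochondria-specific protein (chr2:24972470-24975098), stood at 21.4, 24.6 and 18.5 CPM against 10.01, 15.0 and 9.57 CPM. Its fall of 0.90 (SE 0.20, adjusted p = 0.0290) was the largest of the family, and the libraries labelled Sirt6 KO 1 and 3 stood below Sirt6 KO 2. Mrpl40, also mitochondria-specific (chr16:18872018-18876637), stood at 14.3, 15.9 and 17.1 CPM against 11.7, 12.2 and 11.5 CPM. It was lower by a log2 difference of -0.42 (SE 0.11, adjusted p = 0.0481), again without overlap.

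The other 4 that fell have bacterial counterparts. Mrpl1, a protein of the mobile stalk beside the tRNA exit site (chr5:96209498-96266727), stood at 38.4, 45.2 and 38.5 CPM in WT and at 27.1, 29.1 and 28.7 CPM under the Sirt6 KO label. The latter lay within 2 CPM of each other, and the difference was -0.52 (SE 0.11, adjusted p = 0.0229). Mrpl30 (chr1:37890477-37898338) stood at 94.4, 102.5 and 104.5 CPM against 73.5, 75.9 and 76.3 CPM, a difference of -0.42 (SE 0.10, adjusted p = 0.0317). Mrpl32, which the inner membrane m-AAA protease must cleave before it joins the ribosome (chr13:14610301-14613037), stood at 27.2, 29.4 and 30.1 CPM against 22.3, 22.8 and 19.9 CPM, a difference of -0.42 (SE 0.11, adjusted p = 0.0389). Mrpl47, a protein near the end of the exit tunnel (chr3:32727497-32736755), had more spread than the other 3, by its SE. It stood at 16.0, 21.1 and 13.5 CPM in WT and 8.31, 11.5 and 10.9 CPM under the Sirt6 KO label, and the closest libraries, WT 3 and Sirt6 KO 2, were 13.5 and 11.5 CPM. The difference was -0.72 (SE 0.20, adjusted p = 0.0488).

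The 2 large subunit mRNAs that rose had tight groups. Mrpl27 (chr11:94653770-94661932), whose bacterial counterpart reaches toward the peptidyl transferase center, stood at 22.6, 22.2 and 22.4 CPM in WT and at 29.4, 29.98 and 28.7 CPM under the Sirt6 KO label. The SDs were 0.246 and 0.666 CPM, and the difference was 0.39 (SE 0.09, adjusted p = 0.0315). Mrpl53, which is mitochondria-specific (chr6:83109108-83109932), stood at 37.0, 37.8 and 39.8 CPM against 50.1, 48.4 and 48.7 CPM, a difference of 0.36 (SE 0.09, adjusted p = 0.0368). No library of one group reached the other in either gene.

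In the small subunit, 2 of 29 mRNAs (6.9%) were lower and 3 (10.3%) higher, beside 8.39% and 7.85% of all genes, with a median log2 fold change of -0.06 and quartiles at -0.18 and 0.11. The libraries of the groups did not overlap for 3 lower and 6 higher members (10.3% and 20.7%), beside 19.6% and 20.3% of all genes. The 3 members that rose were Mrps24, Mrps34 and Mrps16. Mrps24 (chr11:5703982-5707701), the counterpart of a bacterial protein at the mRNA entry channel, stood at 29.3, 27.0 and 29.9 CPM in WT and at 42.6, 44.5 and 41.5 CPM in the libraries labelled Sirt6 KO. Its rise of 0.58 (SE 0.10, adjusted p = 0.0158) had the smallest p of the family, at rank 367 among all genes tested. Mrps34 (chr17:24895120-24896289), a mitochondria-specific protein mutated in Leigh syndrome, stood at 20.1, 21.0 and 26.4 CPM against 33.8, 36.8 and 38.3 CPM, a difference of 0.69 (SE 0.13, adjusted p = 0.0201). Mrps16 (chr14:20391222-20393634), mutated in a fatal neonatal respiratory chain deficiency, stood at 25.02, 24.0 and 27.3 CPM against 34.3, 35.4 and 32.2 CPM, a difference of 0.42 (SE 0.10, adjusted p = 0.0355). WT 3 was the highest WT library in all 3 genes.

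Of the 2 that fell, Mrps31 (chr8:22410449-22429669) is a mitochondria-specific protein of the small subunit. It stood at 28.3, 31.5 and 28.5 CPM in WT and at 17.9, 21.8 and 19.3 CPM in the libraries labelled Sirt6 KO, a difference of -0.58 (SE 0.12, adjusted p = 0.0218). Mrps36 (chr13:100735940-100744659) keeps its symbol from an early assignment, and its protein is now known as a subunit of the 2-oxoglutarate dehydrogenase complex of the citric acid cycle. It stood at 41.9, 50.2 and 41.4 CPM against 27.1, 35.3 and 32.5 CPM, a difference of -0.49 (SE 0.14, adjusted p = 0.0484). With Mrps36 left out and Mrps30 and Mrps18a moved to the large subunit, where structures place them, the small subunit had 1 lower and 3 higher of 26 members.

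**Figure D2:**
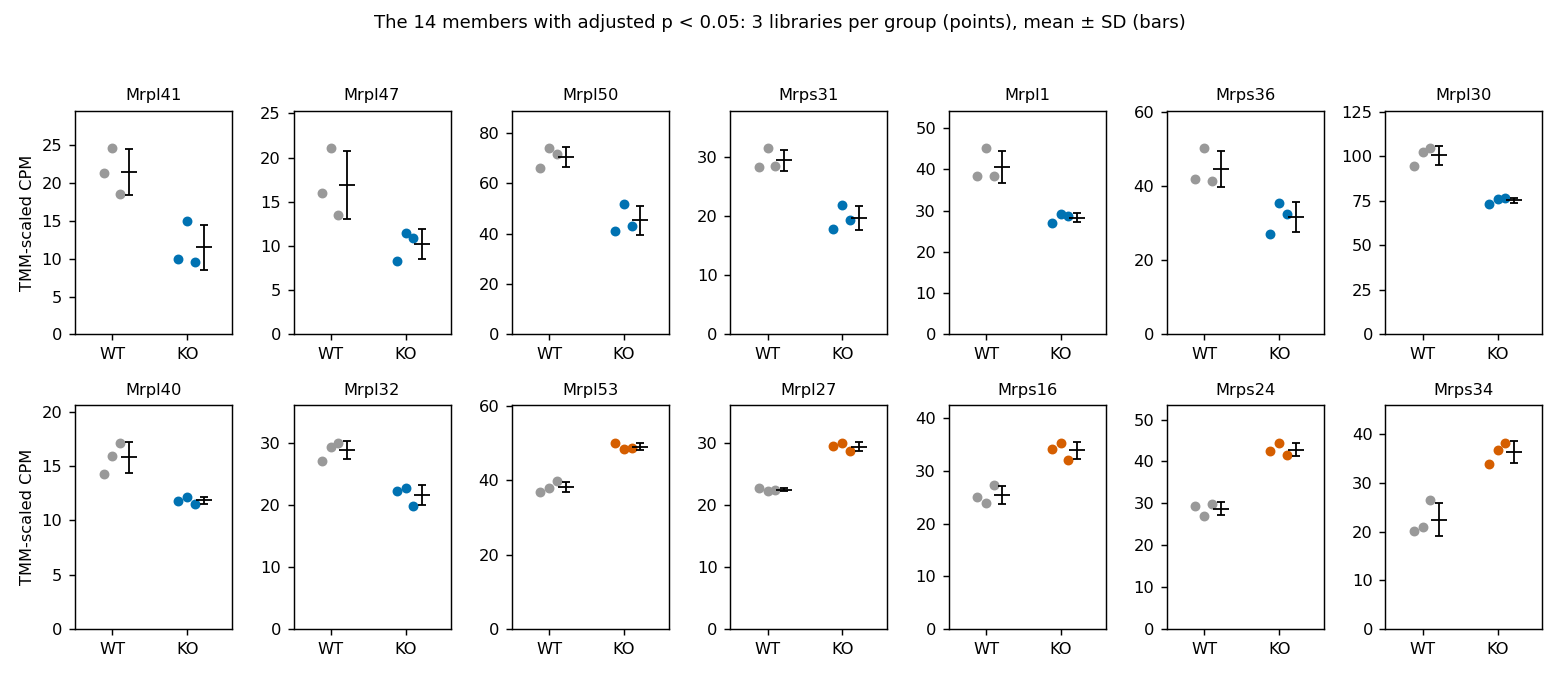
TMM-scaled CPM (vertical axes, from 0) of the 14 members that passed the test, for the 3 WT and the 3 libraries labelled KO (points) with the mean and SD of each group (bars). In each panel, before any GC correction, all 3 libraries of one group lie on the same side of all 3 of the other, for example 65.8 to 73.8 against 40.8 to 51.8 CPM for Mrpl50.

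Of 46 members with a bacterial counterpart, 4 (8.7%) fell and 3 (6.52%) rose, near the 8.39% and 7.85% of all genes, with a median log2 fold change of -0.09. Of 32 members classed as mitochondria-specific, 5 (15.6%) fell and 2 (6.25%) rose, with a median of -0.12. The 5 that fell include Mrps36, whose protein is not ribosomal. The 32 include Mrps18a and Mrps18b, which are relatives of a bacterial protein, so the shares of the 2 classes are approximate. After GC correction each class had 2 lower and 1 higher. Among 23 members picked for a known role or a link to human disease, 2 fell (Mrpl50 and Mrps36) and 2 rose (Mrps34 and Mrps16), 8.7% each way. The median log2 fold change of these 23 was -0.06.

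Several members with a particular role did not pass the test. Mrpl12, a stalk protein that recruits translation factors and also binds the mitochondrial RNA polymerase, stood at 105.7, 109.0 and 89.6 CPM in WT and at 80.4, 104.3 and 82.5 CPM in the libraries labelled Sirt6 KO (log2 difference -0.19, SE 0.14, adjusted p = 0.376). After GC correction it was -0.40 (adjusted p = 0.114). Mrps14, a protein of the small subunit head, stood at 36.1, 40.7 and 25.9 CPM against 24.1, 26.7 and 22.2 CPM. Its groups overlapped through WT 3 alone, at 25.9 CPM, and the difference was -0.49 (SE 0.18, adjusted p = 0.0944), or -0.16 after GC correction (adjusted p = 0.584). Mrps30, a large subunit protein despite its symbol, differed by -0.18 (SE 0.11, adjusted p = 0.302), a sign that turned with a correction for GC content, to 0.13.

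Mrps18a, Mrps18b and Mrps18c are the 3 mammalian relatives of a single bacterial protein, of which Mrps18a sits in the large subunit and the other two in the small subunit. Mrps18a stood at 43.7 to 47.3 CPM in WT and at 43.7 to 49.5 CPM in the libraries labelled Sirt6 KO, a difference of 0.02 (SE 0.10). Mrps18b differed by 0.11 (SE 0.11) and Mrps18c by -0.14 (SE 0.11), with adjusted p of 0.519 and 0.381. All 3 had overlapping groups, and no shift among the paralogs was detected with 3 libraries per group. The signs of these small differences turned with a correction for GC content, to -0.17 for Mrps18a, -0.02 for Mrps18b and 0.03 for Mrps18c.

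Summed over each subunit, the mRNAs of the large subunit took 2077, 2242 and 2173 CPM in WT and 1885, 2139 and 1917 CPM in the libraries labelled Sirt6 KO. Those of the small subunit took 918, 1000 and 968 CPM against 909, 1001 and 940 CPM. The groups overlapped in both sums. Within the same libraries, the large subunit sum was 2.26, 2.24 and 2.25 times the small subunit sum in WT and 2.07, 2.14 and 2.04 times in the libraries labelled Sirt6 KO. This ratio, added after values were seen, did not overlap between the groups, at 2.25 ± 0.01 and 2.08 ± 0.05 (SD, n = 3), a difference of -0.17. Over all genes, 19.6% were lower and 20.3% higher without overlap, but these are shares of single genes and give no reference for a ratio of sums. With 3 libraries against 3, an exact two-sided permutation p cannot fall under 0.1, and no p is given for a sum over chosen genes. The difference was -0.14 from summed FPKM and -0.10 from CPM corrected for GC content, both without overlap. Without the 14 members that passed the test it was -0.07 and the groups overlapped, at 2.21 to 2.25 against 2.11 to 2.23. Those members were picked by the same comparison in the same libraries, so the smaller difference without them is no independent check.

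**Figure D3:**
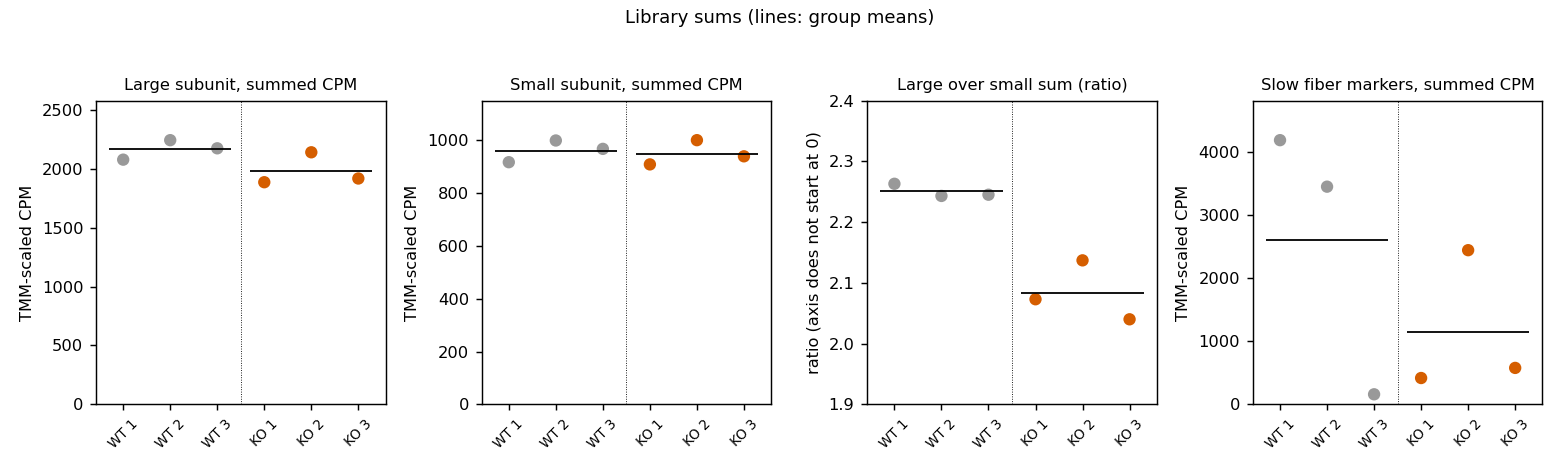
Summed CPM of the large and small subunit members, the ratio of the 2 sums (axis not from 0) and the summed slow fiber markers in each library (points), with group means (lines). The ratio, added after values were seen, was 2.24 to 2.26 in WT and 2.04 to 2.14 under the KO label. Without the members that passed the test, which were picked by the same comparison, the groups overlapped in this ratio. WT 3 had the fewest slow fiber marker counts at 159.9 CPM.

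Libraries differed within the groups as well. WT 2 gave the highest value of 22 of the 49 large subunit mRNAs, and Sirt6 KO 1 the lowest of 23. Nuclear OXPHOS mRNAs summed to 28137, 31205 and 23387 CPM in WT and to 22071, 29097 and 24012 CPM in the libraries labelled Sirt6 KO, with WT 2 and Sirt6 KO 2 highest in their groups. The slow fiber marker sum was highest in WT 1, WT 2 and Sirt6 KO 2, as given above, and its part in the members' differences was not tested. The ratio of the subunits was 2.26, 2.24 and 2.25 in WT 1, WT 2 and the slow-poor WT 3. Under the KO label it was highest, 2.14, in the slow-rich Sirt6 KO 2, and 2.07 and 2.04 in the slow-poor Sirt6 KO 1 and 3. Without WT 3 the members that passed numbered 24 rather than 14 (30.8%), where 32.5% of all genes passed, and without Sirt6 KO 2 they numbered 5 (6.41%), where 6.205% of all genes passed. Without WT 1, WT 2, Sirt6 KO 1 or Sirt6 KO 3 the same test passed 0 members, with 19 to 21 at an unadjusted p under 0.05. In those 4 fits 440, 249, 8 and 13 of all genes passed. The fold changes of the 14 kept their sign whichever library was left out, but their sizes moved. Mrpl50 stayed between -0.74 and -0.57 and Mrps24 between 0.53 and 0.61. Mrpl41 ranged from -1.12 to -0.78, Mrpl47 from -0.86 to -0.53 and Mrps34 from 0.63 to 0.83.

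The base composition of the transcripts moved with the result. The members that fell had a median GC content of 44.7% (longest transcript), those that rose 53.8%, and the rest 49.9%. Across the 78 members, Spearman's rho between GC content and log2 fold change was 0.37, and it was 0.33 across all 13715 genes with a GC value. This is a description across genes measured in the same 6 libraries, and genes are not independent replicates. When each library's log counts were corrected for a smooth trend with GC content, 6 members passed the test: Mrpl41, Mrpl40, Mrpl21 and Mrpl34 were lower, and Mrpl57 and Mrps16 higher. Over all genes the shares were then 3.52% lower and 3.41% higher. Mrpl41 (-1.01), Mrpl40 (-0.59) and Mrps16 (0.48) passed with and without the correction. Mrpl40 and Mrps16 lost the call with a replicate block. Of the 6 fits with 1 library left out and no GC correction, Mrpl41 passed in 2, and Mrpl40 and Mrps16 in 1 each. Mrpl21 stood at 32.0, 33.2 and 35.8 CPM in WT and at 25.7, 27.7 and 26.1 CPM in the libraries labelled Sirt6 KO before the correction, with an adjusted p of 0.0519 without it and 0.0379 with it. Mrpl34 went from -0.53 (adjusted p = 0.0589) to -0.77 (adjusted p = 0.0369), and Mrpl57 from 0.45 (adjusted p = 0.0633) to 0.69 (adjusted p = 0.0352). All 14 members that passed without the correction kept their sign, but 11 lost the call and 6 shrank by more than 1.5 times. These 6 were Mrpl32 (-0.16), Mrpl1 (-0.25), Mrpl30 (-0.25), Mrpl50 (-0.39), Mrpl53 (0.21) and Mrps34 (0.43), with adjusted p of 0.342, 0.182, 0.147, 0.0896, 0.183 and 0.0880 after the correction. Mrps24 (0.39), Mrps31 (-0.41), Mrpl27 (0.30), Mrps36 (-0.43) and Mrpl47 (-0.58) lost the call with adjusted p of 0.0535 to 0.106. The correction turned the members' own relation, from a rho of 0.37 to -0.25.

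**Figure D4:**
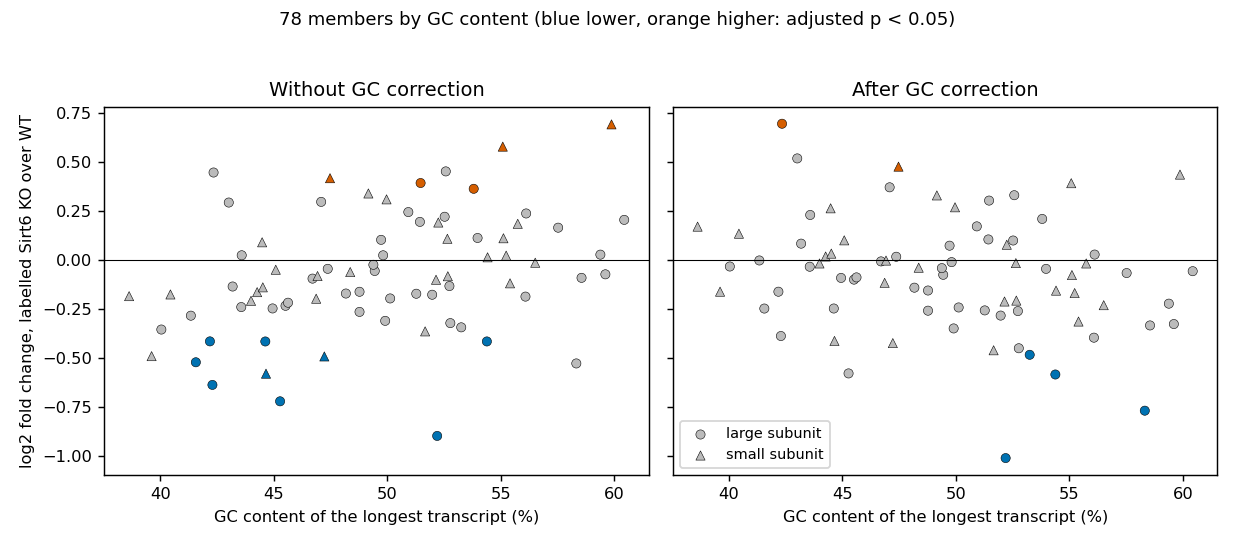
Log2 fold change (vertical axis) against the GC content of the longest transcript (horizontal axis, %) for the 78 members, without (left) and with (right) a correction for GC content. Circles are large and triangles small subunit members, and colored points passed the test (blue lower, orange higher): 14 at left and 6 at right.

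Exons of 33 members share bases with another annotated gene, 8 of them on the same strand, and whether counting used strand is not given in the sources used here. Of the 14 members that passed, 5 are among them, and their counts could include reads of the neighbor. Mrps34 shares 1309 of its 2064 exon bases with Mapk8ip3 on the opposite strand and 763 with Nme3 on its own strand. Mapk8ip3 rose by 1.03 (SE 0.10, adjusted p = 0.0110) and Nme3 differed by 0.61 (SE 0.18, adjusted p = 0.0596), so the value of Mrps34 is uncertain. Mrpl47 shares 616 bases with Ndufb5, a complex I subunit that fell by 0.62 (SE 0.17, adjusted p = 0.0481). Mrps24 shares 226 of 1466 bases with Urgcp on the same strand, and Urgcp stood at 57.0, 71.8 and 63.5 CPM in WT and at 59.4, 73.5 and 63.0 CPM in the libraries labelled Sirt6 KO, with full overlap. Mrpl27 shares 75 bases with Eme1. Mrpl53 shares 695 of its 790 bases with the gene model Gm42688 on the same strand, so the value of Mrpl53 is uncertain. Mrpl46 and Mrps11 overlap head to head by 173 bases, and differed by -0.13 (SE 0.16) and 0.11 (SE 0.10), with adjusted p of 0.573 and 0.477. The sign for Mrps11 turned with the GC correction, to -0.08. Mrps6 shares 159 bases with Slc5a3, a myo-inositol transporter. Slc5a3 stood at 16.3, 6.68 and 2.46 CPM against 1.74, 1.49 and 1.63 CPM, and Mrps6 differed by -0.37 (SE 0.13, adjusted p = 0.0974). Processed pseudogenes of Mrpl23, Mrpl48 and Mrps36 are annotated, and reads of these members are uncertain for that reason.

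Lists of other genes of the mitochondrial translation machinery are read against the same shares of all genes, 8.39% lower and 7.85% higher, and 3.52% and 3.41% after GC correction. Of 5 mitochondrial ribosomal proteins with other symbols, Dap3 (a small subunit protein first known from cell death) fell from 58.3, 65.1 and 58.4 CPM to 44.7, 48.4 and 48.6 CPM (log2 difference -0.36, SE 0.10, adjusted p = 0.0484). It lost the call with GC correction (-0.42, adjusted p = 0.0517) and with the replicate block (-0.36). Ptcd3 (-0.41) and Aurkaip1 (0.29) did not pass, with adjusted p of 0.0933 and 0.1001. Of 16 translation factors and related proteins, 2 (12.5%) were lower and 0 higher, and after GC correction 1 was lower. Guf1, a GTPase that acts on elongating mitochondrial ribosomes, stood at 33.1, 37.0 and 30.8 CPM in WT and 14.9, 16.8 and 16.6 CPM in the libraries labelled Sirt6 KO, a fall of 1.07 (SE 0.12, adjusted p = 0.0110) that was -0.67 after GC correction (adjusted p = 0.0320). Mtif2, the initiation factor, fell by 0.48 (SE 0.10, adjusted p = 0.0234) and lost the call after GC correction (-0.30, adjusted p = 0.0982). Gfm2, a ribosome recycling factor, differed by -0.37 (SE 0.11, adjusted p = 0.0516).

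Of 30 assembly and rRNA maturation factors tested, 2 (6.67%) were lower and 5 (16.7%) higher, with a median log2 fold change of -0.04. After GC correction 1 was lower and 1 higher. Mterf3, which acts on mitochondrial transcription and ribosome assembly, stood at 20.7, 23.8 and 18.3 CPM against 10.8, 13.0 and 11.1 CPM (-0.85, SE 0.14, adjusted p = 0.0155). Dhx30, an RNA helicase of the mitochondrial RNA granules, rose from 30.1, 27.3 and 28.5 CPM to 40.8, 44.6 and 43.1 CPM (0.58, SE 0.10, adjusted p = 0.0157), and Trub2, a pseudouridine synthase, rose by 0.45 (SE 0.10, adjusted p = 0.0275). The groups did not overlap in any of these 3 genes. After GC correction Mterf3 (-0.59, adjusted p = 0.0501) and Dhx30 (0.38, adjusted p = 0.0573) no longer passed, while Trub2 did (0.44, adjusted p = 0.0451). Of 14 regulators of nuclear genes for mitochondria and of mitochondrial transcription, 4 (28.6%) were lower and 1 (7.14%) higher, and after GC correction 1 was lower and 0 higher. The list includes Creb1 and Ppargc1a, whose results in these same data were known when it was made. Its share of lower genes is thus no independent result. Creb1, a transcription factor that binds cyclic AMP response elements, fell by 0.96 (SE 0.15, adjusted p = 0.0145). Tfb2m, a mitochondrial transcription initiation factor, fell by 0.62 (SE 0.11, adjusted p = 0.0163), whereas Polrmt, the mitochondrial RNA polymerase, rose by 0.76 (SE 0.14, adjusted p = 0.0180). These 3 lost the call after GC correction: Creb1 (-0.63, adjusted p = 0.0522), Tfb2m (-0.37, adjusted p = 0.0728) and Polrmt (0.50, adjusted p = 0.0703). Gabpa, Nrf1 and Yy1 are named here for the motifs counted above, after their values were seen. Gabpa fell by 0.35 (SE 0.10, adjusted p = 0.0493) and lost the call after GC correction (-0.07, adjusted p = 0.663). Nrf1 (0.28) and Yy1 (-0.28) did not pass, with adjusted p of 0.146 and 0.103. Ppargc1a, the coactivator PGC-1α that drives mitochondrial biogenesis, is named here after its values were seen. It stood at 764.2, 1703 and 515.3 CPM in WT and at 45.6, 169.7 and 92.2 CPM in the libraries labelled Sirt6 KO (-3.28, SE 0.61, adjusted p = 0.0186), and passed after GC correction too (adjusted p = 0.0359).

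The mitochondrial ribosomal proteins were set beside 2 families with related products, the nuclear OXPHOS subunits and the ribosomal proteins of the cytosol. Of 81 nuclear OXPHOS subunits tested, 6 (7.41%) were lower and 3 (3.7%) higher, with a median log2 fold change of -0.06, beside 8.39% and 7.85% of all genes. After GC correction 1 was lower and 0 higher. Of 86 cytosolic ribosomal proteins, 2 (2.33%) were lower and 19 (22.1%) higher, with a median of 0.26. After GC correction 1 was lower and 9 higher, with a median of 0.26. The medians of the large and small mitochondrial subunits were -0.14 and -0.06. No test between the families was made.

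**Figure D5:**
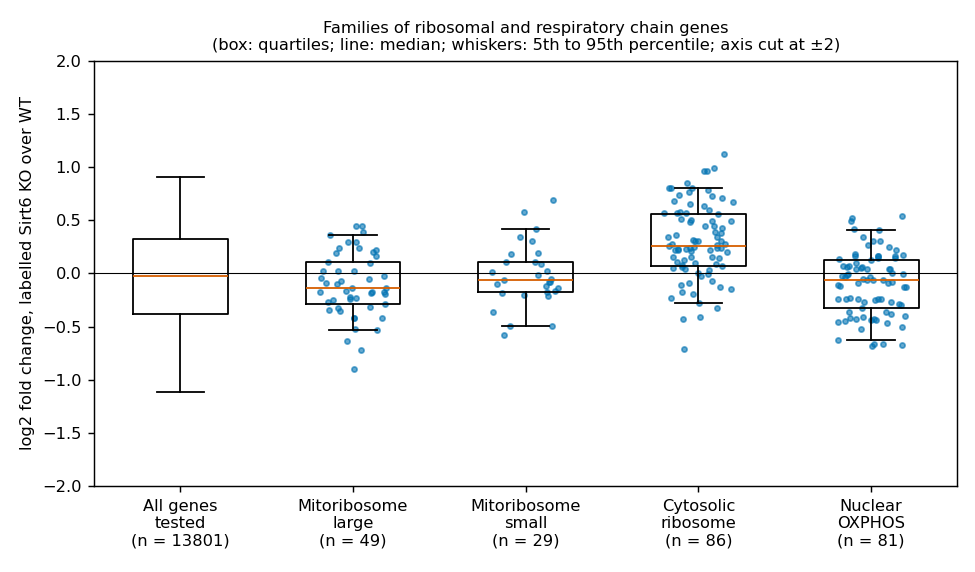
Log2 fold change (vertical axis, libraries labelled Sirt6 KO over WT) of all 13801 genes tested, the 49 large and 29 small subunit members, 86 cytosolic ribosomal proteins and 81 nuclear OXPHOS subunits; boxes give quartiles and median, whiskers the 5th to 95th percentile, and points single genes. The medians were -0.02, -0.14, -0.06, 0.26 and -0.06 from left to right, and 1 cytosolic ribosomal gene lies beyond the axis.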

How the data were processed

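The data are RNA-seq of gastrocnemius muscle from 3 WT and 3 labelled Sirt6 KO mice, 1 library per animal, so p-values measure the spread between these animals. The authors deposited read counts, FPKM and TPM per gene for the 6 libraries. The submitters' processing notes name bcl2fastq 2.20.0, FastQC 0.11.7, HISAT2 2.1.0, Bowtie2 2.3.4.1 and StringTie 2.1.3b with mm10, whereas the study's reporting summary names STAR, and the labels and methods name different library kits. Strandedness of counting is not given in the sources used here. The deposited TPM values were not used, the deposited FPKM values gave levels per length and an alternative test, and the deposited counts gave all main tests.

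Counts were filtered with filterByExpr (minimum 10), which kept 13801 of 24532 genes. They were scaled by TMM and tested with edgeR 4.0.16 (R 4.3.3) by glmQLFTest, WT against the libraries labelled Sirt6 KO, without covariates and with Benjamini-Hochberg adjustment over all genes tested (threshold 0.05). The study's methods describe a normalization of log2(FPKM + 1), whereas a figure legend names a Wald test by DESeq2. Counts were used here because they were available. The biological coefficient of variation was 24.1%. The pipeline was tested on simulated data before use. Alternatives were DESeq2 1.42.0, DESeq2 size factors, other filters (none, 10 counts in every library, FPKM above 1), limma 3.58.1 on log2(FPKM + 1) and log2(FPKM + 0.1), a replicate block, a GC correction (lowess on the longest GENCODE M21 transcript, span 0.3, 99.4% of tested genes with a value), each library left out, and subunits assigned by structure.

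Members and gene lists were chosen with earlier results of these data known, and the classes by bacterial counterpart and the ratio of the subunit sums were added after values were seen. Genes were named as follows: Sirt6, up to 8 passing members with the smallest p in each subunit and direction, the 3 highest and 3 lowest by FPKM, members with a set role, members overlapping other genes, and the 3 smallest p in each related list. Of the role list, members with little difference are given by their count. Columns of per-sample values left unused for want of a sample numbered 0. Protein sequences were not used here.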

Additional observations from a re-analysis of the deposited data

How the results depend on the processing

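With 3 animals per group, the calls changed when 1 library was left out, over all genes as well as among the members. Whether the library itself or the smaller group accounts for this was not tested. Leaving out 1 library at a time moved the large subunit members that passed between 0 and 9 lower and 0 and 7 higher, and the small subunit between 0 and 4 lower and 0 and 4 higher. The share of all genes that passed ran from 0.0568% without Sirt6 KO 1 to 32.46% without WT 3. By edgeR 0 members passed without WT 1, WT 2, Sirt6 KO 1 or Sirt6 KO 3 (19 to 21 at an unadjusted p under 0.05), and 24 passed without WT 3. The medians kept their sign under every alternative run, at -0.20 to -0.09 for the large and -0.09 to -0.01 for the small subunit. For the other alternatives, the replicate block included, shares of all genes are given only for the GC correction. Shifts in the counts of members are thus not shown to be particular to them. DESeq2 passed 9 lower and 3 higher large subunit members. With no filter 4 large and 1 small subunit members were lower. With limma on log2(FPKM + 1) or log2(FPKM + 0.1), 4 large subunit members were higher and 1 small subunit member lower. The GC correction left 4 lower and 1 higher in the large subunit and 0 lower and 1 higher in the small. Assigning subunits by structure left 1 small subunit member lower. The ratio of the sums differed by -0.0708 without the 14 members that passed, by -0.1045 after GC correction and by -0.2357 with subunits by structure.

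The replicate block, which pairs libraries by a number that the labels do not tie to a shared litter or day, passed 5 lower and 0 higher large subunit members and 2 lower and 2 higher small subunit members. Deviations of same-numbered libraries from their group means correlated by -0.106, 0.26 and 0.161, so the numbers were not taken to pair them. With GC correction and replicate block together, 2 large subunit members were lower, 0 higher, and 0 of the small subunit passed either way.

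The GC correction turned the sign of 17 of the 78 members, each with a difference of at most 0.203 in size, and leaving out 1 library turned 13, each of at most 0.0963 and none of the 14 that passed. Of the genes given with a fold change, under GC correction, without and with the replicate block, the values were -0.0782 and -0.0779 for Mrps11, -0.1699 and -0.1711 for Mrps18a, -0.0172 and -0.0173 for Mrps18b, 0.0313 and 0.0315 for Mrps18c, and 0.133 and 0.1372 for Mrps30. Among these, with 1 library left out, only Mrps18a turned, ranging from -0.0271 to 0.0597.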
